A study of Mus musculus with 11 samples.

Results

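The genes described here are 10 genes of the integrated stress response: Eif2ak3, Atf4, Ddit3, Ppp1r15a, Trib3, Asns, Chac1, Sesn2, Ddit4 and Vldlr. They were taken by symbol from the deposited table of 14700 genes. All 10 passed the filter on low counts and were among the 14478 genes tested.

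The integrated stress response is the route by which cells under several kinds of stress slow protein synthesis and switch on a set of repair and feedback genes. Kinases that sense separate stresses, among them PERK in the endoplasmic reticulum, phosphorylate the translation factor eIF2, which lowers general translation while the mRNA of the transcription factor ATF4 is translated better. ATF4 and its partner CHOP then raise genes for amino acid supply, feedback on eIF2 phosphorylation, redox control and cell death. In the lung the response has been studied in alveolar epithelial cells, among others. Because its first steps act on translation and phosphorylation, mRNA levels read the response mainly through its targets.

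RNA was sequenced from whole lungs of C57BL/6 mice aged 8 weeks, taken on day 3. The bleomycin group (BLM, 5 libraries) had received 3 U/kg of bleomycin, a DNA-damaging drug used to injure the lung, into the trachea in 50 µL on day 0, and the Control group (6 libraries) had received saline solution by the same route. The labels state no genetic change in either group, and they do not say whether the libraries come from different animals. The p-values therefore refer to the spread between the libraries, which may be technical in part. Control 1 and 4 (Spearman's rho 0.989, chi-square per degree of freedom 17.3) and Control 2 and 3 (0.986 and 25.4) were far more alike than the other 13 Control pairs, which had a chi-square of 105.9 to 460.5 per degree of freedom. They differed by more than sampling noise and were kept as separate libraries, but whether they share an animal or batch is not known. With each of these pairs summed to 1 sample (4 Control samples, an alternative chosen after seeing the data), 2 of the 10 genes rose, against 4 with all libraries. Among the BLM pairs, BLM 2 and 4 were the closest (rho 0.990, chi-square 36.6 per degree of freedom, against 50.5 to 132.0 in the others). No BLM libraries were summed. In RNA of whole lung, fewer cells of a type and less RNA per cell cannot be told apart.

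Total counts were 13226339 to 19009284 per library, and surfactant and other alveolar type 2 markers were abundant in every library (summed FPKM 10680 to 17397 in BLM and 5504 to 19835 in Control). Some libraries stood apart. BLM 1 had a summed FPKM of 942.9 for 6 endothelial markers (380.3 to 596.7 in the other BLM libraries) and 29.3 for 5 smooth muscle markers (121.5 to 195.6 in the other BLM libraries). The endothelial sum rested on Cldn5, at 1188 CPM (scaled reads) in BLM 1 and 232 to 498 CPM in the other BLM libraries. Cdh5, Kdr and Tek were lower in BLM 1 (301, 170 and 174 CPM) than in any other BLM library. Pecam1 and Vwf in BLM 1 lay within the range of the other BLM libraries. Control 2 and 3 had 1854 and 1396 for 7 monocyte and macrophage markers, against 98.0 to 239.9 in the other Control libraries, and Control 1 and 4 had the most club cell marker RNA (248227 and 262460, against 50891 to 176039). By chi-square per degree of freedom, Control 6 was closer to BLM 1, 2 and 3 (85.8, 61.6 and 62.8) than to any Control library (105.9 to 212.8). Without Control 6, 981 genes rose and 1137 fell, against 671 and 825 with all libraries. Of the NK and T cell markers, 7 of 8 fell after bleomycin, with a summed FPKM of 5.9 to 13.8 in BLM and 34.4 to 153.8 in Control, and none was at 0 in all libraries. The part of cell composition in the results below was not tested.

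Chac1, Asns and Vldlr held, near an annotated start of transcription, the core letters of the element that ATF4 binds together with C/EBP proteins. The RefSeq windows ran from 250 bases before to 50 bases after each start, in build GRCm38.p6, which is not the build of the authors' counts. The letters TGATGNAA were searched on both strands (TTNCATCA on the other), only in the 250 bases before each start. All 10 genes had a window, and Vldlr had 2, so 11 windows were searched, of which 3 held the letters before the start. The Trib3 window did not match the start of an annotated Trib3 transcript. By the same search the share was 3.45% over all 32851 mouse windows, and 2.50% over the 11423 tested genes matched by symbol. The stretches are shown because they are the only matches among these genes in the bases searched. Capitals mark the matched letters, each stretch reads in the direction of its gene, and a match is a description of sequence, not evidence of binding.
Chac1, chr2:119351023-119351082, plus strand: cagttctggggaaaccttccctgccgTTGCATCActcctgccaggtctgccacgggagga
Asns, chr6:7693214-7693243, minus strand: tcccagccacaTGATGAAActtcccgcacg
Vldlr, chr19:27216809-27216838, plus strand: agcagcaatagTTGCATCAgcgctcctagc
The Chac1 match lay 193 bases before the start and overlapped no annotated exon. The Asns match lay 23 bases before the start, in a region that is an exon of another annotated Asns transcript. The Vldlr match lay 200 bases before the second of its starts, within a Vldlr exon.

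After bleomycin, Chac1, Sesn2, Ppp1r15a and Ddit4 rose, and Eif2ak3, Atf4, Ddit3, Trib3, Asns and Vldlr did not pass the test (edgeR's quasi-likelihood test, adjusted p of 0.05 as the threshold). The 4 that rose are 40% of the genes described, where 4.63% of all genes tested rose and 10.3% changed in either direction. These genes were chosen with earlier results of these data known, so the shares are given as a description only. None of the 10 fell, also at an unadjusted p of 0.05 and by DESeq2 and limma, against 5.7% of all genes tested. In 3 genes, Chac1, Sesn2 and Ppp1r15a, every BLM library lay above every Control library, as did 3.99% of all genes tested. The median log2 fold change of the 10 genes was 0.44, and that of all genes tested was -0.04.

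**Figure D1:**
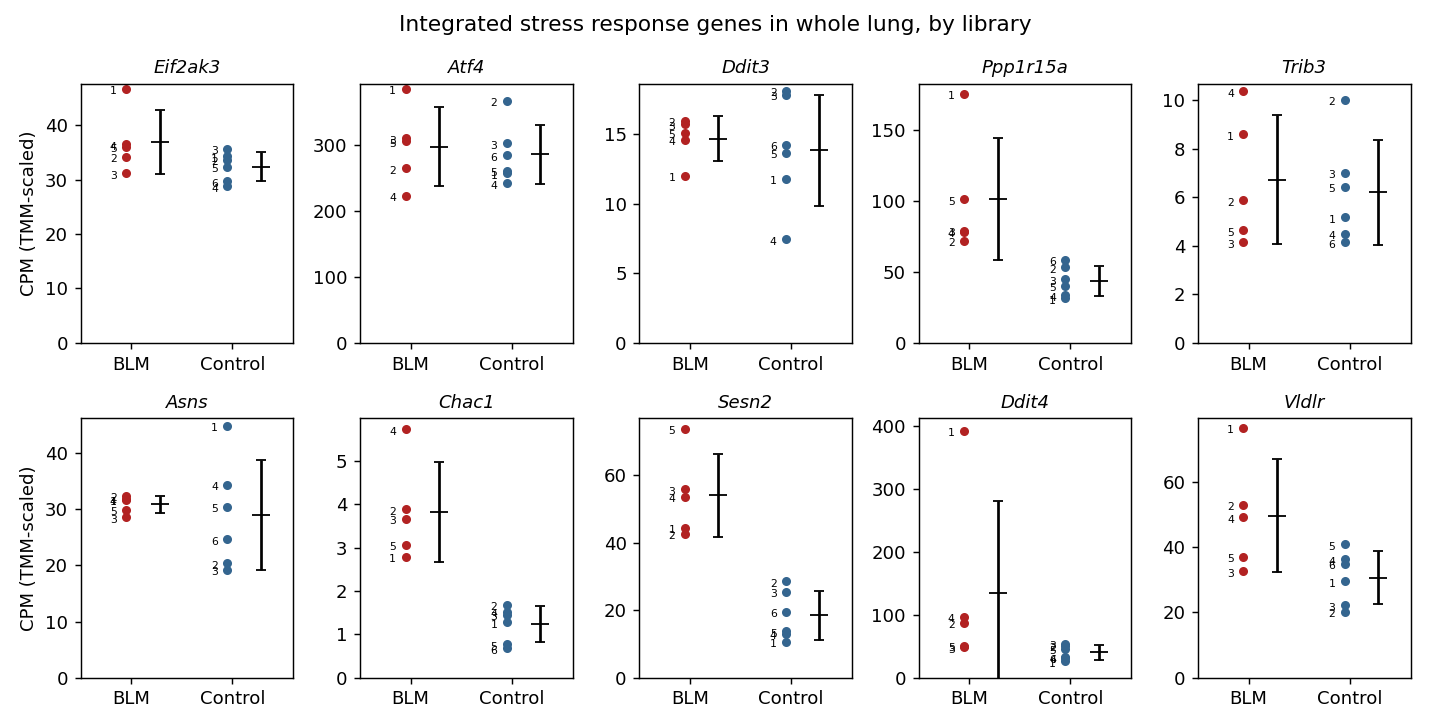
Level of each of the 10 genes in CPM (reads scaled to a common library size by TMM) in every library; points are libraries with their replicate number, and the bars beside them give the mean and SD of 5 BLM and 6 Control libraries (the SD bar of Ddit4 in BLM is drawn down to the axis). The groups do not overlap for Ppp1r15a, Chac1 and Sesn2, and BLM 1 stands at 392 CPM for Ddit4.

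**Figure D2:**
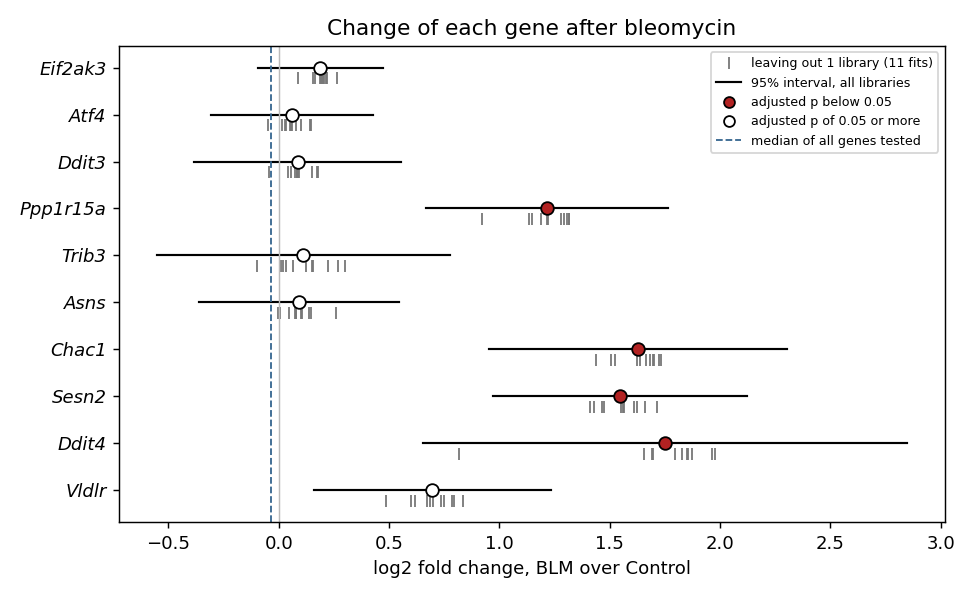
Log2 fold change of BLM over Control for each gene with its 95% interval (black line), the 11 values obtained by leaving out 1 library (grey ticks) and the median of all genes tested (dashed line, -0.04). Filled points passed the adjusted p threshold of 0.05, and the value of Ddit4 was 0.82 without BLM 1.

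Eif2ak3 encodes PERK, the eIF2 kinase of the endoplasmic reticulum. Its level, in CPM (reads scaled to a common library size), was 46.7, 34.2, 31.2, 36.5 and 36.0 in BLM 1 to 5, against a lowest, median and highest Control value of 28.7, 33.0 and 35.7 CPM. BLM 1 was the highest of all 11 libraries and BLM 3 lay below the Control median, so the groups overlapped. On the log2 scale BLM was 0.19 ± 0.13 (SE) above Control, with a 95% interval of -0.09 to 0.47 (edgeR, adjusted p 0.347).

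Atf4, the central transcription factor, was the most abundant of the 10 genes by FPKM in the Control lungs, at 71.5 ± 10.7 in BLM and 62.2 ± 15.3 in Control (SD, n = 5 and 6). Its levels were 385, 265, 311, 223 and 306 CPM in BLM 1 to 5, against 242, 273 and 367 CPM (lowest, median and highest) in Control. The highest and the lowest of all 11 libraries were both BLM libraries. The log2 fold change was 0.06 ± 0.17 (edgeR, adjusted p 0.839), and the 95% interval of -0.31 to 0.43 does not reach a 2-fold change in either direction.

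Ddit3 encodes CHOP, the ATF4-induced factor linked to cell death. It gave 12.0, 15.9, 15.7, 14.6 and 15.1 CPM in BLM 1 to 5, against 7.42, 13.9 and 18.1 CPM (lowest, median and highest) in Control. The BLM libraries lay inside the range of the Control libraries. Its log2 fold change of 0.09 ± 0.22 had an interval of -0.38 to 0.56 (edgeR, adjusted p 0.818). In the GENCODE annotation (GRCm38), 68 of the 1713 exon bases of Ddit3 overlap exons of the methionyl-tRNA synthetase gene on the opposite strand. Eif2ak3 (485 of 6026 exon bases) and Ppp1r15a (12 of 2937) also overlap exons of other genes on the opposite strand. Whether the counting used strand is not given in the sources used here.

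Ppp1r15a encodes GADD34, which brings a phosphatase to eIF2 and so ends the translation block. It stood at 175, 71.7, 78.8, 78.3 and 101 CPM in BLM 1 to 5, against 31.4, 42.5 and 58.4 CPM (lowest, median and highest) in Control. All BLM libraries were above all Control libraries, and BLM 1 was the highest by a wide margin. Ppp1r15a rose 2.32-fold, a log2 fold change of 1.21 ± 0.25 with an adjusted p of 0.0151 by edgeR and an interval of 0.67 to 1.76. Without BLM 1 the log2 fold change was 0.92 and the call held, and with the close Control pairs summed it was 1.17 and the call was lost (adjusted p 0.0562). Its constitutive relative Ppp1r15b had 138 ± 49.2 CPM in BLM and 166 ± 18.5 CPM in Control, a log2 fold change of -0.27 ± 0.20 with an adjusted p of 0.374.

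Trib3, a pseudokinase induced by ATF4 and CHOP that restrains both AKT and ATF4, gave 8.59, 5.88, 4.15, 10.4 and 4.63 CPM in BLM 1 to 5. The Control values were 4.15, 5.80 and 10.0 CPM (lowest, median and highest). Both groups covered nearly the same range. Its log2 fold change was 0.11 ± 0.31 (edgeR, adjusted p 0.832), and the interval of -0.55 to 0.78 is the widest of the 6 genes that did not pass.

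Asns, asparagine synthetase, is the textbook amino acid target of ATF4. It stood at 31.7, 32.4, 28.6, 31.8 and 29.9 CPM in BLM 1 to 5, against 19.2, 27.6 and 44.9 CPM (lowest, median and highest) in Control. The BLM libraries lay close together inside a wide Control range, with a coefficient of variation of 5.14% in BLM and 33.6% in Control. Its log2 fold change of 0.09 ± 0.21 had an interval of -0.36 to 0.54 (edgeR, adjusted p 0.799).

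Chac1 encodes an enzyme that degrades glutathione and is a target of the ATF4 and CHOP branch. It had 37, 64, 61, 84 and 59 reads in BLM 1 to 5, and 10 to 24 reads in the Control libraries. In CPM these were 2.79, 3.88, 3.67, 5.73 and 3.07 in BLM 1 to 5, against 0.68, 1.36 and 1.68 (lowest, median and highest) in Control. No BLM library reached down to the highest Control value, and BLM 4, not BLM 1, was the highest. Chac1 rose 3.09-fold, a log2 fold change of 1.63 ± 0.31 with an adjusted p of 0.0104 by edgeR and an interval of 0.95 to 2.30. The gene was of low abundance, at 2.51 ± 0.84 FPKM in BLM and 0.71 ± 0.25 FPKM in Control.

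Sesn2, a sestrin that restrains mTORC1 and supports antioxidant defence, is induced by ATF4, p53 and NRF2. It stood at 44.3, 42.7, 55.8, 53.6 and 73.7 CPM in BLM 1 to 5, against 10.7, 16.6 and 28.5 CPM (lowest, median and highest) in Control. The lowest BLM library was above the highest Control library. Sesn2 rose 2.92-fold, a log2 fold change of 1.55 ± 0.26 with an adjusted p of 0.00665 by edgeR, the smallest of the 10 genes, and an interval of 0.97 to 2.12. Control 2 and 3, the libraries with most monocyte and macrophage marker RNA, were also the highest Control libraries for Sesn2 (28.5 and 25.4 CPM); without them the log2 fold change was 1.92.

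Ddit4 encodes REDD1, an mTORC1 inhibitor that is also induced by hypoxia, p53 and glucocorticoids. It stood at 392, 87.3, 48.2, 96.5 and 50.5 CPM in BLM 1 to 5, against 26.3, 39.2 and 53.8 CPM (lowest, median and highest) in Control. BLM 1 was over 4 times the next library, and BLM 3 and 5 lay inside the Control range. Ddit4 rose 3.37-fold in the fit, a log2 fold change of 1.75 ± 0.51 with an adjusted p of 0.0468 by edgeR and an interval of 0.65 to 2.85. Without BLM 1 it stood 0.82 above Control on the log2 scale (adjusted p 0.0708). The call held in only 2 of the 11 fits that left out 1 library (BLM 3 or BLM 5), and the adjusted p was 0.135 without Control 1 and 4 and 0.124 with the close Control pairs summed. BLM 1 also had the highest value of the 11 libraries in all 9 glucocorticoid-induced genes tested (summed FPKM of 603.6 over the 10 listed genes, 1 of them not tested, against 209.7 to 275.4 in the other BLM and 125.2 to 181.7 in the Control libraries). The part of this in the Ddit4 value was not tested.

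Vldlr, the very low density lipoprotein receptor, is raised by PERK and ATF4 in mouse fibroblasts and liver. It stood at 76.6, 52.9, 32.5, 49.1 and 37.0 CPM in BLM 1 to 5, against 20.2, 32.2 and 40.8 CPM (lowest, median and highest) in Control. BLM 1, 2 and 4 were above every Control library and BLM 3 and 5 were not. Its log2 fold change of 0.70 ± 0.25 had an interval of 0.16 to 1.23 (edgeR, adjusted p 0.0887). Vldlr did not pass here, but passed in DESeq2, in limma on FPKM or TPM, with total-count scaling and with a GC correction, and the interval leaves 0 outside.

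A two-sided exact permutation test of mean log2(CPM + 1), with 462 arrangements of the libraries, gave p = 0.00216 for Chac1, Sesn2 and Ppp1r15a, the smallest it can give, with the close Control pairs taken as separate libraries. The same exact test gave p = 0.0152 for Ddit4, 0.0346 for Vldlr and 0.102 for Eif2ak3. For Atf4, Ddit3, Trib3 and Asns it gave p of 0.500 to 0.766.

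**Figure D3:**
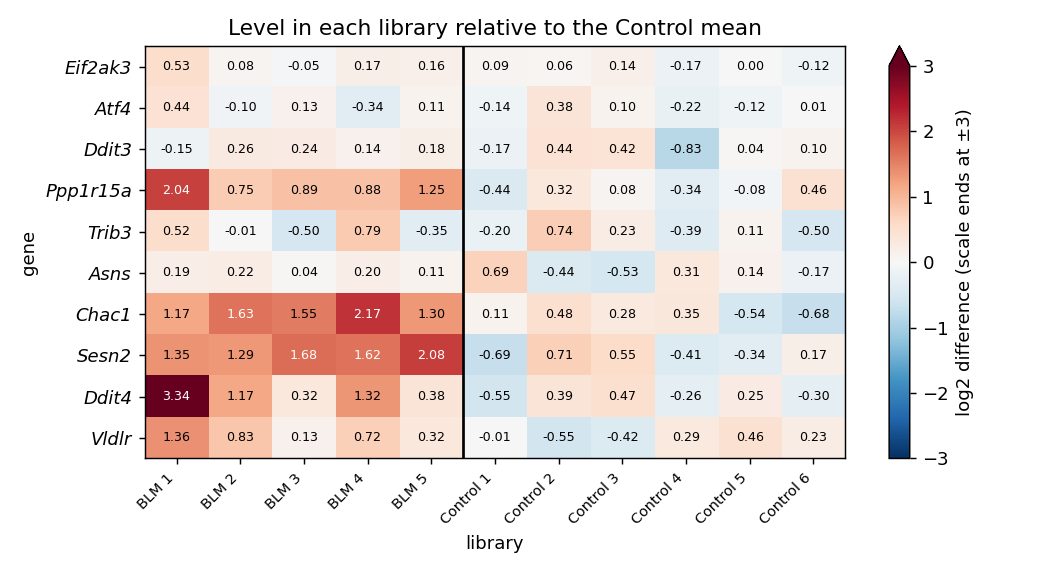
Log2 difference of each library from the Control mean for each gene (rows), with BLM 1 to 5 left of Control 1 to 6. Chac1 and Sesn2 are 1.17 or more above the Control mean in every BLM library, while Ddit4 reaches 3.34 in BLM 1 and 0.32 in BLM 3.

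The genes that rose did not all have their highest value in the same library. BLM 1 was the highest of the 11 libraries for Ppp1r15a, Ddit4, Vldlr, Atf4 and Eif2ak3, BLM 4 for Chac1 and Trib3, and BLM 5 for Sesn2. The number of the 10 genes above the Control mean was 9, 8, 8, 9 and 9 in BLM 1 to 5, and 3, 8, 8, 3, 6 and 5 in Control 1 to 6. The median difference of the 10 genes from the Control mean was 0.85, 0.51, 0.19, 0.76 and 0.25 in BLM 1 to 5 on the log2 scale, and 0.38 and 0.19 in Control 2 and 3. By this measure and by the count, BLM 3 and Control 3 were alike. When Control 2 and 3 were left out, Chac1, Sesn2 and Ppp1r15a had log2 fold changes of 1.83, 1.92 and 1.30. When Control 1 and 4 were left out, the values were 1.75, 1.33 and 1.06, and the 3 genes passed in both fits.

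By FPKM, which corrects for gene length, the order of the genes differed between the groups. In BLM it ran Ddit4 (78.0), Atf4 (71.5), Ppp1r15a (19.1), Sesn2 (16.7), Ddit3 (6.39), Asns (4.77), Eif2ak3 (4.13), Chac1 (2.51), Trib3 (2.25) and Vldlr (2.09). In Control it ran Atf4 (62.2), Ddit4 (21.9), Ppp1r15a (7.62), Ddit3 (5.44), Sesn2 (5.19), Asns (3.89), Eif2ak3 (3.25), Trib3 (1.88), Vldlr (1.15) and Chac1 (0.71). Neighbours such as Ddit4 and Atf4 in BLM, or Ddit3 and Sesn2 in Control, did not differ beyond their spread over libraries. The place of Ddit4 in BLM rests on BLM 1, at 213 FPKM against 28.7 to 60.9 FPKM in the other BLM libraries.

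For 4 genes, the closest patterns in the table were sought, as the smallest mean absolute difference of centred log2 CPM over the 11 libraries. Closest to Atf4 were Wwp2 (0.064), Rce1 (0.072) and Ints5 (0.075), and closest to Ddit3 were Phf23 (0.113), Casp9 (0.114) and Rom1 (0.118). Closest to Trib3 were Rab31 (0.130), Eif6 (0.185) and Gab2 (0.188). For Chac1 the closest genes were farther, Tead3 (0.322), Nrip3 (0.323) and Fbp2 (0.337), beside an SD of 0.92 of Chac1 itself and 0.24 of Atf4 over the libraries.

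The rest of the pathway, taken from lists chosen with earlier results of these data known, held 10 calls among 86 genes in 7 lists (11.6%), close to the 10.3% of all genes tested. Among 16 genes for the other eIF2 kinases, the phosphatase and the subunits of eIF2 and its exchange factor eIF2B, 1 fell and none rose by edgeR, with 2 higher and 2 lower at an unadjusted p of 0.05. The gene that fell was Nck1, an adaptor that takes part in eIF2 dephosphorylation, at 46.5 ± 9.36 CPM in BLM and 78.7 ± 24.7 CPM in Control (log2 fold change -0.76 ± 0.21, adjusted p 0.0440). DESeq2 called 1 higher and 2 lower. Dnajc3, an inhibitor of PERK and the most abundant of the list, had a log2 fold change of -0.16 ± 0.15 with an adjusted p of 0.495. The kinases Eif2ak1, Eif2ak2 and Eif2ak4 had log2 fold changes of 0.12, -0.30 and 0.08, none past the threshold. The call of Nck1 held in only 3 of the 11 fits that left out 1 library (Control 2, 3 or 6).

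Among 8 partner transcription factors and secreted targets, Gdf15 rose, and Stc2 and Cebpg fell. Gdf15, a secreted stress hormone that ATF4 and p53 both induce, had 5.88, 13.5, 10.6, 14.7 and 25.9 CPM in BLM 1 to 5, against 0.54, 0.79 and 5.81 CPM (lowest, median and highest) in Control. All BLM libraries were above all Control libraries, although BLM 1 and Control 2 lay side by side. Its rise was 2.86 ± 0.65 on the log2 scale (adjusted p 0.0210). Without BLM 5 the log2 fold change of Gdf15 was 2.52 and the adjusted p 0.0564, and without Control 1 and 4 they were 2.47 and 0.0568. Without Control 2 the log2 fold change was 3.58. Cebpg, the C/EBP partner with which ATF4 pairs, had 91.4 ± 19.6 CPM in BLM and 133 ± 9.03 CPM in Control (log2 fold change -0.54 ± 0.14, adjusted p 0.0374). Stc2, a secreted glycoprotein, had 2.81 ± 0.65 CPM in BLM and 5.00 ± 1.07 CPM in Control (-0.83 ± 0.23, adjusted p 0.0447). Cebpg held in only 2 of the 11 fits that left out 1 library (BLM 2 or Control 6), and Stc2 in 2 (Control 5 or 6). With total-count scaling Nck1, Cebpg and Stc2 did not pass (adjusted p 0.110, 0.162 and 0.131). Vegfa, the most abundant of this list and also hypoxia-induced, had a log2 fold change of 0.81 ± 0.29 with an adjusted p of 0.0924. Atf3 had a log2 fold change of 0.06 with an adjusted p of 0.958, at 25.9 to 56.9 CPM in BLM and 10.3 to 15.3 CPM in 4 Control libraries, with 85.2 and 85.5 CPM in Control 2 and 3.

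Of 12 amino acid synthesis genes 1 fell and none rose by edgeR. At an unadjusted p of 0.05, 2 were lower and none higher, the second being Mthfd2, a mitochondrial folate enzyme (log2 fold change -0.93, adjusted p 0.0913). DESeq2 called 2 lower and none higher. Phgdh, the first enzyme of serine synthesis and the most abundant of the list, had 3.92, 6.06, 7.76, 10.5 and 8.07 CPM in BLM 1 to 5, against 12.3, 15.4 and 17.9 CPM (lowest, median and highest) in Control. Every BLM library lay below every Control library in CPM, with a log2 fold change of -1.08 ± 0.23 (adjusted p 0.0183). The adjusted p was 0.0535 without BLM 2 and 0.0566 with total-count scaling.

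Of 9 amino acid transporter genes 2 rose and 1 fell. Slc3a2, the heavy chain shared by several transporters, had 346 ± 50.9 CPM in BLM and 191 ± 57.8 CPM in Control, with no overlap (log2 fold change 0.86 ± 0.21, adjusted p 0.0281). Slc6a9, a glycine transporter, had 15.3 ± 3.21 CPM in BLM and 8.04 ± 3.08 CPM in Control (0.93 ± 0.26, adjusted p 0.0406). Slc7a11, the cystine transporter subunit, had 4.00 to 9.50 CPM in BLM and 6.12 to 144 CPM in Control, with the highest Control values in Control 2 and 3 (144 and 85.4 CPM). The fall of Slc7a11 was -2.91 ± 0.76 on the log2 scale (adjusted p 0.0343), or -2.16 without Control 2 (adjusted p 0.0528) and -1.14 without both Control 2 and 3 (adjusted p 0.0395). The call of Slc7a11 was lost without BLM 2, 3, 4 or 5 or Control 2 or 3, and that of Slc3a2 without BLM 2, 4 or 5 or Control 1 or 5. Slc6a9 passed only without Control 6 among these fits. Slc6a9 also lost its call without both Control 2 and 3 (adjusted p 0.0622), and Slc3a2 without both Control 1 and 4 (adjusted p 0.0672).

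None of the 15 cytosolic aminoacyl-tRNA synthetases passed by edgeR, with 2 higher and 1 lower at an unadjusted p of 0.05 and 1 higher by DESeq2. Cars had 44.2 ± 6.14 CPM in BLM and 33.5 ± 4.46 CPM in Control (log2 fold change 0.40 ± 0.14, adjusted p 0.0848), and Gars, the most abundant, had a log2 fold change of 0.00 ± 0.13. Of 7 further targets of ATF4 or CHOP, Tnfrsf10b rose, a death receptor that p53 also induces, at 31.8 ± 26.0 CPM in BLM and 6.77 ± 2.84 CPM in Control (2.23 ± 0.45, adjusted p 0.0132). BLM 1 had 77.5 CPM of Tnfrsf10b and the other BLM libraries 13.5 to 25.9 CPM, and without BLM 1 the log2 fold change was 1.59 (adjusted p 0.0147). Sqstm1, the most abundant of these and an autophagy receptor, had a log2 fold change of 0.24 ± 0.18 with an adjusted p of 0.394.

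Of 19 chaperones and regulators of the unfolded protein response 1 fell and none rose by edgeR, with 5 lower and none higher at an unadjusted p of 0.05, 4 lower by DESeq2, and a median log2 fold change of -0.23. Without Control 2 and 3, 2 rose and 2 fell. Hsp90b1, the endoplasmic reticulum chaperone GRP94, had 284, 351, 295, 327 and 290 CPM in BLM 1 to 5, against 445, 530 and 731 CPM (lowest, median and highest) in Control. The groups did not overlap (log2 fold change -0.85 ± 0.16, adjusted p 0.0106). In TPM, where the median of all genes was 0.39, Hsp90b1 had a log2 difference of -0.32 and did not pass (adjusted p 0.416). Hspa5, the chaperone BiP, had a log2 fold change of -0.25 with an adjusted p of 0.311, and Calr, the most abundant of the list, one of -0.23 ± 0.29 with an adjusted p of 0.624.

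The sestrin paralogs gave 31.7 to 134 CPM for Sesn1 and 25.8 to 47.2 CPM for Sesn3 in BLM, against 43.0 to 71.8 CPM and 38.0 to 59.0 CPM in Control, and neither passed.

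**Figure D4:**
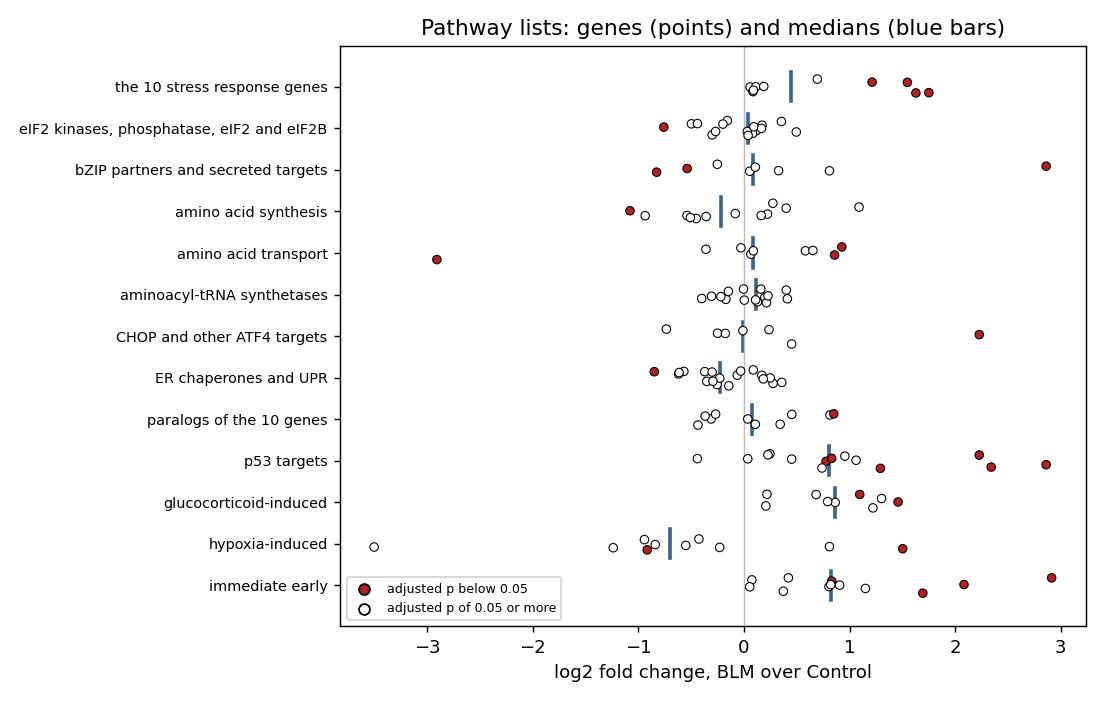
Log2 fold change of BLM over Control for each tested gene of the 10 stress response genes and of the pathway lists (points, filled where the adjusted p was below 0.05), with the median of each list as a blue bar. The medians run from -0.69 for hypoxia-induced genes to 0.86 for glucocorticoid-induced genes, and 0.44 for the 10 genes.

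Several of the genes that rose also answer to other inputs, and the lists for these inputs are given side by side. Of 14 p53 targets 6 rose and none fell by edgeR (at an unadjusted p of 0.05, 8 and 0, and by DESeq2, 8 and 0), with a median log2 fold change of 0.80. Of the 14, 13 had a positive log2 fold change and 1, Mdm2, a negative one (-0.44, edgeR adjusted p 0.178). The number that rose was 9 without Control 2 and 3, and 3 without Control 1 and 4. Cdkn1a, the cell cycle inhibitor p21, had 983, 434, 318, 463 and 526 CPM in BLM 1 to 5, against 40.1, 68.3 and 222 CPM (lowest, median and highest) in Control. Every BLM library was above every Control library (2.34 ± 0.49, adjusted p 0.0161), and without Control 2 and 3 the log2 fold change was 3.29. Btg2, an antiproliferative gene and the most abundant of the list, had 277 ± 60.9 CPM in BLM and 156 ± 20.6 CPM in Control (0.83 ± 0.16, adjusted p 0.0116). Gdf15, Tnfrsf10b and Bbc3 are in both the p53 list and the ATF4 lists, so they count in each. Btg2 likewise counts in both the p53 list and the immediate early list. Atf3 and Vegfa, of the list of partner factors and secreted targets, also count in the immediate early and the hypoxia list, respectively.

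Of 12 immediate early genes 4 rose, with a median log2 fold change of 0.83, and BLM 1 was the highest library for 9 of the 12. The number that rose was 8 without Control 2 and 3, and 2 without Control 1 and 4. Fosb had 20.3 ± 18.1 CPM in BLM and 2.68 ± 1.25 CPM in Control (log2 fold change 2.91 ± 0.53, adjusted p 0.00890), Nr4a1 had 140 ± 138 CPM in BLM and 33.1 ± 7.27 CPM in Control (2.08 ± 0.46, adjusted p 0.0189), and Dusp1 had 331 ± 285 CPM in BLM and 102 ± 16.1 CPM in Control (1.69 ± 0.39, adjusted p 0.0224). Without BLM 1 the log2 fold changes of Fosb, Nr4a1 and Dusp1 were 2.25, 1.26 and 1.00, and all 3 passed. Of 9 glucocorticoid-induced genes 2 rose, Errfi1 (1.46 ± 0.35, adjusted p 0.0264) and Cebpd (1.10 ± 0.23, adjusted p 0.0149). Errfi1 lost its call without BLM 2, BLM 4 or Control 1. Mt1, a metallothionein, had 178 ± 115 CPM in BLM and 76.2 ± 39.2 CPM in Control and did not pass (adjusted p 0.0712).

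Of 10 hypoxia-induced genes 1 rose and 1 fell, with a median log2 fold change of -0.69. Adm, the vasodilator adrenomedullin, had 7.14 ± 2.01 CPM in BLM and 2.52 ± 0.95 CPM in Control (1.50 ± 0.30, adjusted p 0.0129). Pdk1, a kinase that limits pyruvate oxidation, had 36.2 ± 7.56 CPM in BLM and 68.2 ± 23.2 CPM in Control (-0.92 ± 0.23, adjusted p 0.0304), and its call was lost without BLM 2, 3, 4 or 5 or Control 3, and with total-count scaling (adjusted p 0.0693). Control 2 was the highest library for 7 of the 10 genes of this list. The part of these inputs in the values of Chac1, Sesn2, Ppp1r15a and Ddit4 was not tested.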

How the data were processed

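Polyadenylated RNA of whole lung was sequenced in pairs, with dUTP in the second strand, per the labels' protocols. The authors deposited whole-number read counts per gene, not normalized, and FPKM values (reads scaled for gene length and library size). Per the submitters' processing notes the tools were HISAT2 2.2.1, HTSeq 2.0.2 and FastQC with build GRCm39. The sources used here do not give which step each performed, the annotation, or whether counting respected strand.

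The 14478 genes kept by filterByExpr (count minimum of 10) were scaled by TMM and tested with edgeR 4.0.16 in R 4.3.3 (two-sided quasi-likelihood test, Benjamini-Hochberg adjustment over all genes tested, threshold 0.05). All 5 BLM and 6 Control libraries entered without covariates. Levels are TMM-scaled CPM, or FPKM where genes are compared. Each SE was obtained from the F statistic, as the size of the log2 fold change over the square root of F. The test was tried on simulated counts first. It recovered 23% of changes of 1 on the log2 scale and 78.6% of changes of 2, and 8.26% of its calls there were false. Few genes were changed there (100 and 98 of 14401 tested), and the libraries were drawn independently, without close pairs or libraries that stand apart. These shares therefore need not hold in the data. All listed genes were tested, and the text names every one of the 10 genes and, per pathway list, up to 3 of the largest changes past the threshold and the gene with the highest mean FPKM. A few other genes (the eIF2 kinases, Atf3, Mthfd2, Hspa5, Mdm2, Bbc3, Sesn1, Sesn3 and the endothelial markers) were named after their values were seen. 1 result that this rule would name is not reported here. The other cell type lists are given by list. Alternatives used DESeq2 1.42.0 and limma 3.58.1, the latter on log2 of FPKM or TPM plus a pseudocount of 1 (0.1 for one FPKM fit). The GC correction used GENCODE vM21 transcripts, found for 99.9% of genes tested. The members and lists were chosen with earlier results of these data known. Counting error and library number limit precision.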

Additional observations from a re-analysis of the deposited data

Results flagged for a closer look

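For each of the 10 genes and both groups (20 groups of libraries), the highest and the lowest library were set against the others by Dixon's test. At this test's 95% level chance flags about 1 in 20 groups. Ppp1r15a in BLM 1, at 175 CPM, lay far above the other BLM libraries: its gap took 0.717 of the range of the group, just past the critical value. Ddit4 in BLM 1, at 392 CPM, lay farther still, with a gap of 0.860 of the range. Both flags fall on the same library, which was also the highest of 11 in 9 of 12 immediate early genes and in 9 of 9 glucocorticoid-induced genes. The part of that library's make-up in these values was not tested.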

How the results depend on the processing

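Of the 10 genes 4 rose, and this count was 3 to 4 when each library was left out in turn, 2 (Chac1 and Sesn2) with a block by replicate number, which leaves out Control 6, 2 (Chac1 and Sesn2) with the close Control pairs summed, an alternative chosen after seeing the data, and 1 (Sesn2) at an adjusted p threshold of 0.01. None fell under any of the 25 alternatives run, and 5 rose at most. No sign of pairing by replicate number was seen: deviations of same-numbered libraries correlated at -0.189 to 0.0139, with 0 of 5 pairs over 0.1 and 0 of 5 libraries closest to their own number. With only 5 pairs, some of them holding libraries that stand apart, this check cannot exclude pairing. With the replicate block Ppp1r15a had an adjusted p of 0.0642. Leaving out each library gave adjusted p ranges of 0.0117 to 0.0329 for Chac1, 0.0115 to 0.0376 for Ppp1r15a, 0.00563 to 0.0219 for Sesn2 and 0.0416 to 0.0895 for Ddit4. Over all genes, 671 rose and 825 fell. The counts were 894 and 380 with total-count scaling, 1022 and 346 in limma on log2(FPKM + 1), 1017 and 81 in limma on log2(TPM + 1), 1249 and 1615 in DESeq2, 265 and 241 with the replicate block, 372 and 592 with the GC correction, and 264 to 981 and 293 to 1137 with 1 library left out, and 176 and 303 with the close Control pairs summed. The median log2 fold change of all genes was -0.04, but 0.14 with total-count scaling and 0.39 in TPM, and the falls of Nck1, Stc2, Cebpg, Pdk1 and Phgdh passed in neither. Chac1 rests on 10 to 84 reads per library. With the exact permutation test counted as a further alternative, Ddit4 lost its call in 17 of 26. Vldlr, not called, passed in 7 of 26, 1 of them that test's unadjusted p. With the pairs summed the calls of Nck1, Stc2, Cebpg, Phgdh, Slc7a11, Slc6a9, Slc3a2, Errfi1, Cebpd, Pdk1, Nr4a1 and Dusp1 were also lost.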
